A study of Mus musculus with 16 samples.

Results

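Chemokines and chemokine receptors were followed through status epilepticus (SE) in mouse hippocampus, in animals with and without an astrocyte deletion of Dio2. The genes were taken by a rule on symbol and role, chosen with earlier results of these data known. The rule takes the ligands named Ccl, Cxcl, Cx3cl and Xcl, the receptors named Ccr, Cxcr, Cx3cr and Xcr, and the atypical receptors named Ackr. 55 of the 22180 genes measured met this rule. They were 34 ligands (24 classed here as inflammatory and 10 as homeostatic), 17 receptors and 4 atypical receptors, and all 55 were tested, since no filter on low values was used.

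The 4 groups held 4 arrays each, titled as mice 1 to 4: Astro-D2KO after SE, Astro-D2KO after saline, control after SE and control after saline. All mice were C57BL/6, 8 to 10 weeks old. Astro-D2KO mice are labelled + Flox D2/ + cre Glia and controls wild type/ + cre Glia, so both genotypes carried the glial Cre and differed in the floxed D2 allele. D2 is the type 2 deiodinase, encoded by Dio2, which makes the active thyroid hormone in astrocytes. Every mouse received LiCl at 10 mEq/kg; 18 h later the SE groups received pilocarpine at 65 mg/kg, a muscarinic agonist that starts prolonged seizures, and the other groups received saline. SE and exposure to pilocarpine therefore cannot be told apart. The promoter driving Cre, the sex of the mice and the time from SE to tissue collection were not given in the sources used here.

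Values are log2 expression after robust multi-array averaging (RMA), 1 probe set per gene, so a difference of 1 is a 2-fold difference. The array medians lay between 5.77 and 5.82, and correlations between arrays between 0.969 and 0.990. This scale has no zero and no detection call, so a low value is not evidence that a gene was off, and levels of different genes are not compared. The number of arrays limits the precision. Dio2 itself stood at 8.91, 7.03, 7.17 and 7.12 in Astro-D2KO SE mice and 6.52 to 7.09 in Astro-D2KO saline mice, against 9.51, 9.11, 9.24 and 7.99 in control SE mice and 7.87 to 8.28 in control saline mice. The array labelled Astro-D2KO SE 1 thus lay above every other Astro-D2KO array, and below every control SE array except control SE 4. The array labelled control SE 4 lay more than 1 unit below the other arrays of its group, within the control saline range and above every Astro-D2KO array except Astro-D2KO SE 1. Why these arrays stood apart was not tested. Member counts are therefore also given without these arrays.

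Chemokines are small secreted proteins that steer migrating cells along a gradient. They act through G protein-coupled receptors, and the CC, CXC, CX3C and XC families are named for the spacing of their first cysteines. Inflammatory chemokines are induced on injury and recruit monocytes, neutrophils and T cells, whereas homeostatic ones are made continuously; in brain, neurons make Cx3cl1 (fractalkine) and microglia carry its receptor Cx3cr1. Atypical receptors bind chemokines without the usual G protein signal, and take them up or present them.

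Promoter windows from the RefSeq promoter table (GRCm38.p6, 250 bases before to 50 after the start) were found for 41 of the 55 genes. Each motif was searched on both strands. The full kappa-B form (GGGA, any base, then TTTCC), a site type bound by NF-kappa-B, was in 4 of the 41 (Ccr3, Cxcl1, Cxcl2 and Cxcl3) and in 0.466% of the 27025 genes with windows. A looser form (GGGA, any 4 bases, then CC), which overlaps every full match, was in 17 of the 41 and in 22.9% of all genes. The AP-1 form TGANTCA, bound by Fos and Jun proteins, was in 7 of the 41 and in 8.97% of all genes, TGACGTCA (the cyclic AMP response element) in 0 and 2.03%, and CACGTG (an E-box) in 2 and 8.09%. A match is a run of letters and not a measured binding site. The neutrophil attractants Cxcl1, Cxcl2 and Cxcl3 are shown for the kappa-B letters they share (capitals), at chr5:90891149-90891208, chr5:90903777-90903836 and chr5:90786003-90786062, all on the plus strand.
Cxcl1: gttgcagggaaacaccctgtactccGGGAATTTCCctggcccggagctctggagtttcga
Cxcl2: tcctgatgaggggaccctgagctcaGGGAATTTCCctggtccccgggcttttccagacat
Cxcl3: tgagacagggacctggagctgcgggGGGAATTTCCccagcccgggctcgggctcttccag
The windows of Ccl3, Ccl9 and Ccl12 are shown because these genes had some of the largest SE differences below. They lie at chr11:83649329-83649628 (minus strand), chr11:83578587-83578886 (minus strand) and chr11:82101595-82101894 (plus strand), and the capitals in Ccl9 mark its AP-1 letters.
Ccl3: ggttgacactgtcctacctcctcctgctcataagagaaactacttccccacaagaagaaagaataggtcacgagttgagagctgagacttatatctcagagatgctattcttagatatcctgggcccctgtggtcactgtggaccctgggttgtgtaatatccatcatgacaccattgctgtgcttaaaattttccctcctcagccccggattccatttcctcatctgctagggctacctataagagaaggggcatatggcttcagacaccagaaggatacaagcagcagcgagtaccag
Ccl9: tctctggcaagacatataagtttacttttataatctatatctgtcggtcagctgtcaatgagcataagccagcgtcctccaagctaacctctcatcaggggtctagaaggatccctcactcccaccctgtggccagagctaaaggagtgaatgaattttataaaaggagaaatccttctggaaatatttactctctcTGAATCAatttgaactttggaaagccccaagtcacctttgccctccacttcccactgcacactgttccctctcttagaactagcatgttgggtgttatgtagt
Ccl12: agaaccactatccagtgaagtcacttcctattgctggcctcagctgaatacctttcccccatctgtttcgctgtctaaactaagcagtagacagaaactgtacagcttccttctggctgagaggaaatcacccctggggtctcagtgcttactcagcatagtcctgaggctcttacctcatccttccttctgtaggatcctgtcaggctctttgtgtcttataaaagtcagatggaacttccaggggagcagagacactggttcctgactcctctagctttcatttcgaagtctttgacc
Of the 11 genes that rose after SE on average over genotypes, 6 had a window, and Ccl9 and Cxcl1 were the ones holding an AP-1 and a full kappa-B match. All 5 genes that fell had a window, and 1 of them (Ccl27a) held an AP-1 match and 0 a full kappa-B match. The looser form was in 2 of the 6 and 2 of the 5. Whether a motif goes with the SE response was not tested.

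SE was accompanied by higher mRNA of a few inflammatory CC chemokines in both genotypes, above all Ccl3, with smaller rises of Ccl4, Ccl9, Ccl11 and Ccl2. In Astro-D2KO mice 10 of the 55 genes (18.2%) differed between SE and saline, 7 higher and 3 lower, while 20.1% of all genes did (limma, Benjamini-Hochberg adjusted p under 0.05 over all 22180 genes). In control mice 14 of 55 (25.5%) differed, 10 higher and 4 lower, while 22.1% of all genes did. Averaged over genotypes 16 of 55 (29.1%) differed, 11 higher and 5 lower, against 32.6% of all genes. The family's share of calls in either direction was thus close to that of all genes. By direction, 12.7% of members rose in Astro-D2KO mice, 18.2% in controls and 20% on average, beside 7.49%, 8.42% and 12.1% of all genes. The shares that fell were 5.45%, 7.27% and 9.09%, beside 12.6%, 13.7% and 20.6% of all genes. Whether the family's shares differ from those of all genes was not tested. Calls of at least 2-fold higher covered 3 of 55 genes (5.45%) in each genotype and on average, beside 1.24% of all genes in Astro-D2KO mice, 1.46% in controls and 1.29% on average. SE arrays all lay above saline arrays for 10 of 55 genes (18.2%) in Astro-D2KO mice, beside 9.54% of all genes, and for 7 of 55 (12.7%) in controls, beside 8.46%. They all lay below for 3 of 55 in each genotype, beside 15.1% of all genes in Astro-D2KO mice and 13.7% in controls. Without the arrays labelled Astro-D2KO SE 1 and control SE 4, 9 members were called in Astro-D2KO mice (7 higher, 2 lower), beside 4043 of all 22180 genes. In controls 11 members were then called (9 higher, 2 lower), beside 4699 of all genes. In bulk tissue a change in the number of cells of a type and a change in RNA per cell cannot be told apart.

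**Figure D1:**
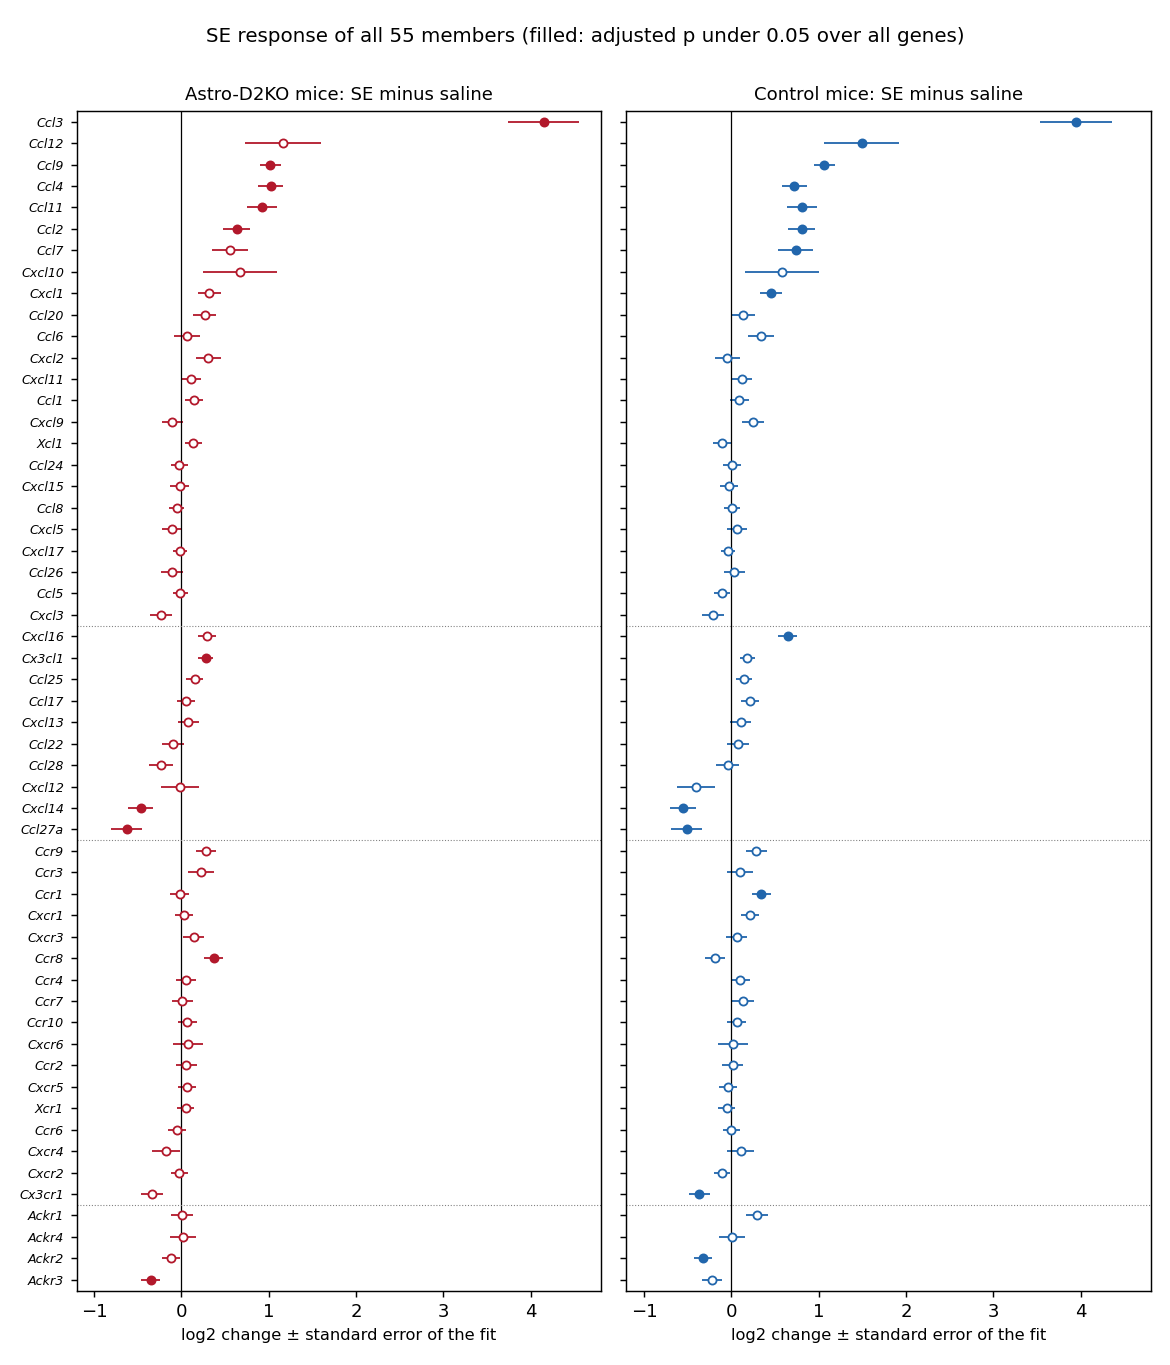
Log2 change after SE minus saline (± standard error) for the 55 genes, grouped by role, in Astro-D2KO and control mice, with filled points for genes called. Ccl3 stands apart at 4.15 in Astro-D2KO and 3.95 in control mice, while the genes not called lie between -0.34 and 1.16 in Astro-D2KO mice and between -0.40 and 0.58 in control mice.

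Ccl3, also called MIP-1 alpha, attracts monocytes and T cells, and acts through Ccr1. Ccl3 stood at 10.23, 10.37, 10.88 and 10.32 in Astro-D2KO SE mice, against 5.73, 5.77, 6.00 and 7.71 in Astro-D2KO saline mice. Control mice gave 10.12, 9.61, 10.30 and 10.04 after SE, against 6.23, 7.11, 4.90 and 6.03 after saline. Every SE array was more than 1 unit above every saline array of either genotype. The rise was 4.15 ± 0.409 (standard error of the fit, n = 4 per group; 17.7-fold; limma adjusted p = 1.9e-06) in Astro-D2KO mice and 3.95 ± 0.409 (15.4-fold; limma adjusted p = 3.07e-06) in controls. Ranked by rise among all 22180 genes, Ccl3 was number 4 in Astro-D2KO mice and number 6 in controls.

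Ccl4 (MIP-1 beta) is the neighbour of Ccl3 and attracts monocytes and T cells, and its annotated span overlaps that of Ccl3. Ccl4 stood at 6.76, 6.95, 7.35 and 6.86 in Astro-D2KO SE mice, against 5.84, 5.88, 6.08 and 6.03 in Astro-D2KO saline mice. In controls it was 6.56, 6.39, 7.13 and 6.80 after SE, against 6.07, 5.82, 6.06 and 6.04 after saline. The groups did not overlap in either genotype, and the rise was 1.03 ± 0.142 (2.04-fold; limma adjusted p = 7.12e-05) in Astro-D2KO mice and 0.72 ± 0.142 (1.65-fold; limma adjusted p = 0.00132) in controls.

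Ccl9, a mouse ligand of Ccr1, also rose in both genotypes. Its arrays read 7.74, 7.18, 7.51 and 7.26 in Astro-D2KO SE mice, against 6.49, 6.53, 6.33 and 6.28 in Astro-D2KO saline mice. In control mice they read 7.75, 7.30, 7.62 and 7.46 after SE, against 6.40, 6.59, 6.52 and 6.34 after saline. SE and saline arrays were separate in both genotypes, with rises of 1.02 ± 0.121 (2.02-fold; limma adjusted p = 1.4e-05) and 1.07 ± 0.121 (2.09-fold; limma adjusted p = 8.16e-06) in Astro-D2KO and control mice.

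Ccl11 (eotaxin-1), the eosinophil attractant that acts through Ccr3, was also separate in both genotypes. It stood at 6.49, 7.05, 7.34 and 6.81 in Astro-D2KO SE mice, against 5.84, 6.27, 5.90 and 5.99 in Astro-D2KO saline mice. Controls gave 6.62, 6.48, 6.33 and 6.98 after SE, against 6.10, 5.76, 5.71 and 5.60 after saline. The rise was 0.92 ± 0.168 (limma adjusted p = 0.00083) in Astro-D2KO mice and 0.81 ± 0.168 (limma adjusted p = 0.00201) in controls.

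Ccl2 (MCP-1), Ccl7 and Ccl12 are the monocyte attractants that signal through Ccr2. Ccl2 stood at 6.30, 6.76, 6.99 and 6.58 in Astro-D2KO SE mice, against 5.87, 5.80, 5.97 and 6.44 in Astro-D2KO saline mice. In controls Ccl2 was 6.77, 6.76, 6.79 and 7.03 after SE, against 6.33, 5.78, 5.98 and 6.02 after saline. Ccl2 rose in both, by 0.64 ± 0.154 (limma adjusted p = 0.00681) in Astro-D2KO mice, where the lowest SE array lay below the highest saline array, and by 0.81 ± 0.154 (limma adjusted p = 0.00104) in controls, where the arrays were separate. Ccl7 was 6.07, 6.16, 7.14 and 6.31 in Astro-D2KO SE mice, against 5.86, 5.98, 5.69 and 5.91 in Astro-D2KO saline mice, and 5.94, 6.08, 6.44 and 6.61 in control SE mice, against 5.98, 5.36, 5.34 and 5.43 in control saline mice. It passed the test in controls (0.74 ± 0.205, limma adjusted p = 0.0144), although 1 SE array there lay below 1 saline array, and missed it in Astro-D2KO mice (0.56 ± 0.205, limma adjusted p = 0.0637), where the arrays were separate.

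Ccl12 (MCP-5) is the other monocyte attractant. It stood at 5.66, 5.77, 7.18 and 6.12 in Astro-D2KO SE mice, against 4.70, 4.63, 4.40 and 6.35 in Astro-D2KO saline mice. In controls it was 5.89, 6.40, 6.02 and 7.14 after SE, against 5.83, 5.05, 4.27 and 4.34 after saline. The arrays were separate in controls, where Ccl12 rose by 1.49 ± 0.433 (2.81-fold; limma adjusted p = 0.0188), and overlapped in Astro-D2KO mice, where the difference of 1.16 ± 0.433 missed the test (limma adjusted p = 0.0695). The call in controls was lost without control saline array 3 or 4, or control SE array 4 (1.23 to 1.31, limma adjusted p between 0.0579 and 0.0639). On average over genotypes Ccl12 rose by 1.33 ± 0.306 (limma adjusted p = 0.00249).

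**Figure D2:**
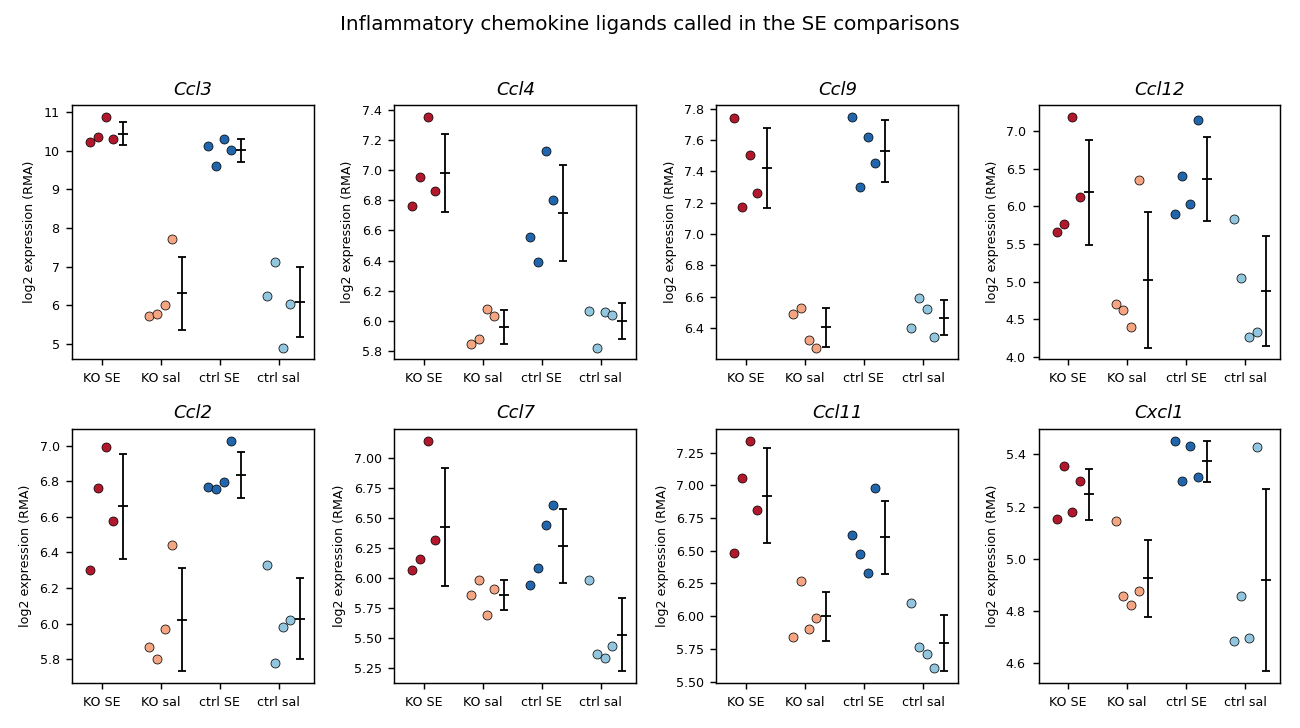
Log2 expression of inflammatory ligands on each array in the 4 groups (KO, Astro-D2KO; ctrl, control; sal, saline); crosses and bars give the mean ± SD of 4 arrays. Ccl3 is the widest separation, with all SE arrays at 9.61 or above and all saline arrays at 7.71 or below.

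Among the 24 inflammatory ligands, 5 rose and 0 fell in Astro-D2KO mice, 8 rose and 0 fell in controls, and 8 rose on average, beside 7.49%, 8.42% and 12.1% of all genes rising; the median changes were 0.14 and 0.13 in Astro-D2KO and control mice, beside -0.01 and -0.02 over all genes. Of the CXC ligands, Cxcl1 was 5.15, 5.36, 5.18 and 5.30 in Astro-D2KO SE mice, against 5.15, 4.86, 4.83 and 4.88 in Astro-D2KO saline mice, and 5.45, 5.30, 5.43 and 5.31 in control SE mice, against 4.69, 4.86, 4.70 and 5.43 in control saline mice. It rose in controls (0.45 ± 0.13, limma adjusted p = 0.0173) and averaged over genotypes (0.39, limma adjusted p = 0.00312), and missed the test in Astro-D2KO mice (0.32 ± 0.13, limma adjusted p = 0.098). The control call for Cxcl1 was lost without control saline array 1 or 3 (0.38 for each, limma adjusted p 0.06 and 0.0645). Cxcl2 and Cxcl3, which share its kappa-B letters, were not called in either genotype. The interferon-inducible Cxcl10, a T-cell attractant, was 6.56, 6.53, 8.31 and 6.55 in Astro-D2KO SE mice, against 6.26, 6.30, 5.67 and 7.04 in Astro-D2KO saline mice, and 6.42, 6.26, 6.64 and 7.84 in control SE mice, against 6.40, 7.06, 5.78 and 5.61 in control saline mice. Its arrays overlapped in both genotypes and its average difference of 0.62 missed the test (limma adjusted p = 0.127), with a 95% interval from -0.01 to 1.25. Ccl5 (RANTES), a T-cell attractant, was 6.29, 6.25, 6.34 and 6.25 in Astro-D2KO SE mice, against 6.28, 6.51, 6.20 and 6.19 in Astro-D2KO saline mice, and 5.97, 6.24, 6.16 and 6.34 in control SE mice, against 6.38, 6.33, 6.25 and 6.19 in control saline mice. Its arrays overlapped, and it differed by -0.01 in Astro-D2KO and -0.11 in control mice, uncalled.

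11 CC ligand genes that were measured lie on chromosome 11. In the RefSeq GRCm38.p6 order, Ccl2, Ccl7, Ccl11, Ccl12, Ccl8 and Ccl1 follow each other with 0 other coding genes between them; 25 coding genes then lie before Ccl5, Ccl9, Ccl6, Ccl3 and Ccl4, which again are neighbours. Averaged over genotypes 7 of the 11 rose, beside 12.1% of all genes: the leading 4 of the first run, and Ccl9, Ccl3 and Ccl4 of the second. These 7 genes were already counted above among the chemokine genes that rose. Ccl8 differed by -0.05 in Astro-D2KO and 0.01 in control mice, and Ccl1 by 0.14 and 0.09. Ccl5 and Ccl6 were not called either, with Ccl6 differing by 0.06 in Astro-D2KO and 0.34 in control mice. Ccl6 was 5.04, 4.96, 5.59 and 4.51 in control SE mice, against 4.75, 4.71, 4.62 and 4.67 in control saline mice, so the arrays overlapped and SE array 3 stood apart above the others of its group. Called and uncalled genes thus lay side by side, as with Ccl12 and Ccl8 or Ccl3 and Ccl6, and the difference between neighbours was not tested.

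**Figure D3:**
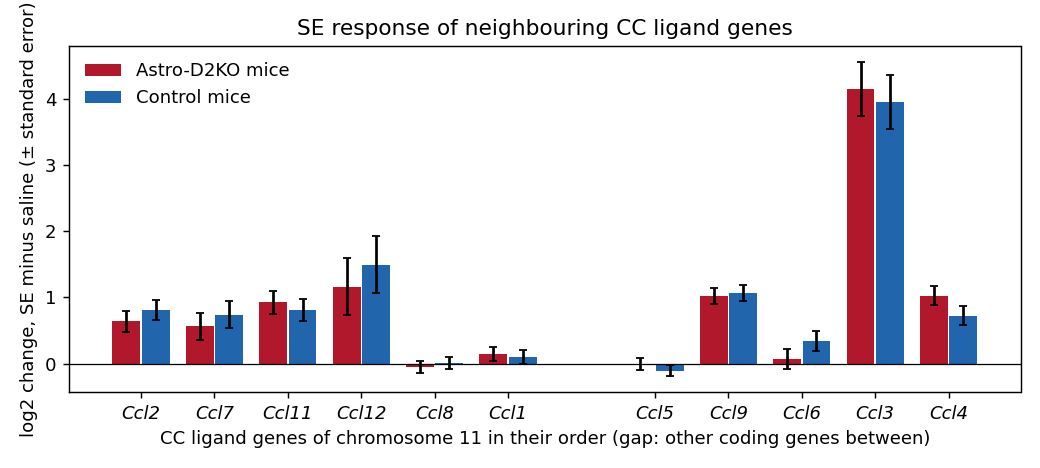
Log2 change after SE minus saline (± standard error) for the 11 CC ligand genes in their order on chromosome 11, in Astro-D2KO and control mice. The genes from Ccl2 to Ccl12 and Ccl9, Ccl3 and Ccl4 lie above 0, whereas Ccl8 (-0.05 and 0.01) and Ccl5 (-0.01 and -0.11) lie near it.

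Of the 10 homeostatic ligands, 1 rose and 2 fell in each genotype, shares near those of all genes (7.49% rose and 12.6% fell in Astro-D2KO mice, 8.42% and 13.7% in controls), and 2 rose and 2 fell on average. Cx3cl1, the membrane-bound neuronal chemokine, was 10.65, 10.51, 10.58 and 10.69 in Astro-D2KO SE mice, against 10.38, 10.40, 10.16 and 10.37 in Astro-D2KO saline mice. In controls it was 10.57, 10.62, 10.55 and 10.45 after SE, against 10.52, 10.43, 10.27 and 10.24 after saline. Cx3cl1 rose in Astro-D2KO mice, where the arrays were separate (0.28 ± 0.0822, limma adjusted p = 0.0224), and the overlapping control arrays missed the test (0.19, limma adjusted p = 0.121). The Astro-D2KO call was lost without Astro-D2KO saline array 3 or Astro-D2KO SE array 1 or 4 (0.22 to 0.26, limma adjusted p between 0.0575 and 0.0858). Averaged over genotypes it rose by 0.23 ± 0.0581 (limma adjusted p = 0.00451).

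Cx3cr1, the fractalkine receptor of microglia, went the other way. It was 7.76, 7.49, 8.04 and 7.48 in Astro-D2KO SE mice, against 8.05, 8.11, 7.79 and 8.16 in Astro-D2KO saline mice. In controls it was 7.82, 7.55, 7.44 and 7.60 after SE, against 8.03, 8.08, 7.82 and 7.93 after saline. Averaged over genotypes it fell by 0.35 on the log2 scale (standard error 0.0863, limma adjusted p = 0.00407), with a difference of -0.34 in Astro-D2KO mice (limma adjusted p = 0.0614, arrays overlapping) and -0.36 in controls (limma adjusted p = 0.0403, arrays separate). The control call was lost without control saline array 1, 2 or 4 or control SE array 2, 3 or 4 (-0.37 to -0.31, limma adjusted p between 0.0613 and 0.117). A list of 12 measured microglial markers includes Cx3cr1 itself, which is among those that fell in controls and on average. Of the 12, 4 fell in Astro-D2KO mice (beside 12.6% of all genes) and 2 in controls (beside 13.7%, a share near that of the list). On average 6 fell (beside 20.6%), and 0 rose in any of these comparisons. Changes ran from -1.14 to 0.71 in Astro-D2KO mice, with 2 above 0. In controls they ran from -1.02 to 0.31, with 3 above 0. P2ry12, a nucleotide receptor of resting microglia, was the lowest in both genotypes. The mean log2 level of that list was 7.12 to 7.30 in Astro-D2KO SE mice and 7.42 to 7.58 in Astro-D2KO saline mice, and 7.08 to 7.36 in control SE mice and 7.29 to 7.61 in control saline mice. The part of microglia in the Cx3cr1 result was not tested.

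Cxcl14, a chemokine made by neurons and epithelia, fell in both genotypes. It was 9.06, 8.81, 8.84 and 9.22 in Astro-D2KO SE mice, against 9.53, 9.46, 9.45 and 9.34 in Astro-D2KO saline mice, and 9.11, 9.39, 8.97 and 8.53 in control SE mice, against 9.34, 9.71, 9.44 and 9.72 in control saline mice. The change was -0.47 ± 0.146 (limma adjusted p = 0.0313, arrays separate) in Astro-D2KO mice and -0.55 ± 0.146 (limma adjusted p = 0.0107, arrays overlapping) in controls. The Astro-D2KO call was lost without Astro-D2KO saline array 1, 2 or 3 or Astro-D2KO SE array 2 or 3 (-0.46 to -0.41, limma adjusted p between 0.0625 and 0.092).

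Ccl27a, known as a skin chemokine, was 8.20, 8.49, 8.55 and 8.54 in Astro-D2KO SE mice, against 8.95, 9.15, 9.01 and 9.17 in Astro-D2KO saline mice, and 8.30, 9.36, 8.61 and 8.29 in control SE mice, against 9.38, 9.11, 8.96 and 9.14 in control saline mice. It fell by 0.63 on the log2 scale (limma adjusted p = 0.0174, arrays separate) in Astro-D2KO mice, and by 0.51 (limma adjusted p = 0.047, arrays overlapping) in controls. In a fit of all 41345 probe sets this probe set of Ccl27a had a limma adjusted p of 0.0395 in Astro-D2KO mice and 0.0861 in controls, and a second one gave -0.28 (limma adjusted p = 0.413) and -0.11 (limma adjusted p = 0.78). Ccl27a has near-identical copies, so its value is uncertain. The Astro-D2KO call was lost without Astro-D2KO SE array 1 (-0.54, limma adjusted p = 0.0597), and the control call without any 1 of 13 arrays (-0.52 to -0.39, limma adjusted p between 0.0537 and 0.15), the exceptions being control saline array 3, control SE array 2 and Astro-D2KO SE array 1.

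Cxcl16, a transmembrane chemokine and the ligand of Cxcr6, was 6.80, 6.59, 6.87 and 6.54 in Astro-D2KO SE mice, against 6.43, 6.51, 6.16 and 6.54 in Astro-D2KO saline mice, and 7.01, 6.90, 7.05 and 6.94 in control SE mice, against 6.30, 6.49, 6.10 and 6.42 in control saline mice. SE arrays lay above saline arrays in both genotypes, narrowly so in Astro-D2KO mice. The rise passed the test in controls (0.64 ± 0.105, limma adjusted p = 0.000278) and missed it in Astro-D2KO mice (0.29 ± 0.105, limma adjusted p = 0.0586).

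Cxcl12 (SDF-1), which guides migrating progenitors, and its signalling receptor Cxcr4 were not called. Cxcl12 was 6.87, 7.38, 7.67 and 7.58 in Astro-D2KO SE mice, against 7.37, 7.39, 7.87 and 6.93 in Astro-D2KO saline mice, and 7.31, 7.01, 7.13 and 7.51 in control SE mice, against 7.03, 7.87, 7.99 and 7.68 in control saline mice. The differences were -0.01 in Astro-D2KO mice and -0.40 ± 0.216 in controls (limma adjusted p = 0.21), and the arrays overlapped in both. Cxcr4 was 6.71, 6.68, 6.71 and 6.39 in Astro-D2KO SE mice, against 7.05, 6.74, 6.51 and 6.88 in Astro-D2KO saline mice, and 6.59, 6.20, 6.62 and 7.08 in control SE mice, against 6.65, 6.75, 6.42 and 6.25 in control saline mice. Its arrays overlapped too, with differences of -0.17 and 0.11. Ackr3 (Cxcr7), the atypical receptor that takes up Cxcl12, was 6.68, 6.81, 6.82 and 6.80 in Astro-D2KO SE mice, against 7.43, 7.05, 6.88 and 7.15 in Astro-D2KO saline mice, and 6.95, 6.71, 6.76 and 6.97 in control SE mice, against 7.08, 6.95, 6.94 and 7.31 in control saline mice. Ackr3 fell averaged over genotypes (-0.29 ± 0.0782, limma adjusted p = 0.00828) and in Astro-D2KO mice (-0.35 ± 0.111, limma adjusted p = 0.0311, arrays separate), while controls missed the test (-0.22, limma adjusted p = 0.177, arrays overlapping). The Astro-D2KO call was lost without Astro-D2KO saline array 1 or 4 or any Astro-D2KO SE array (-0.37 to -0.25, limma adjusted p between 0.0513 and 0.12).

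**Figure D4:**
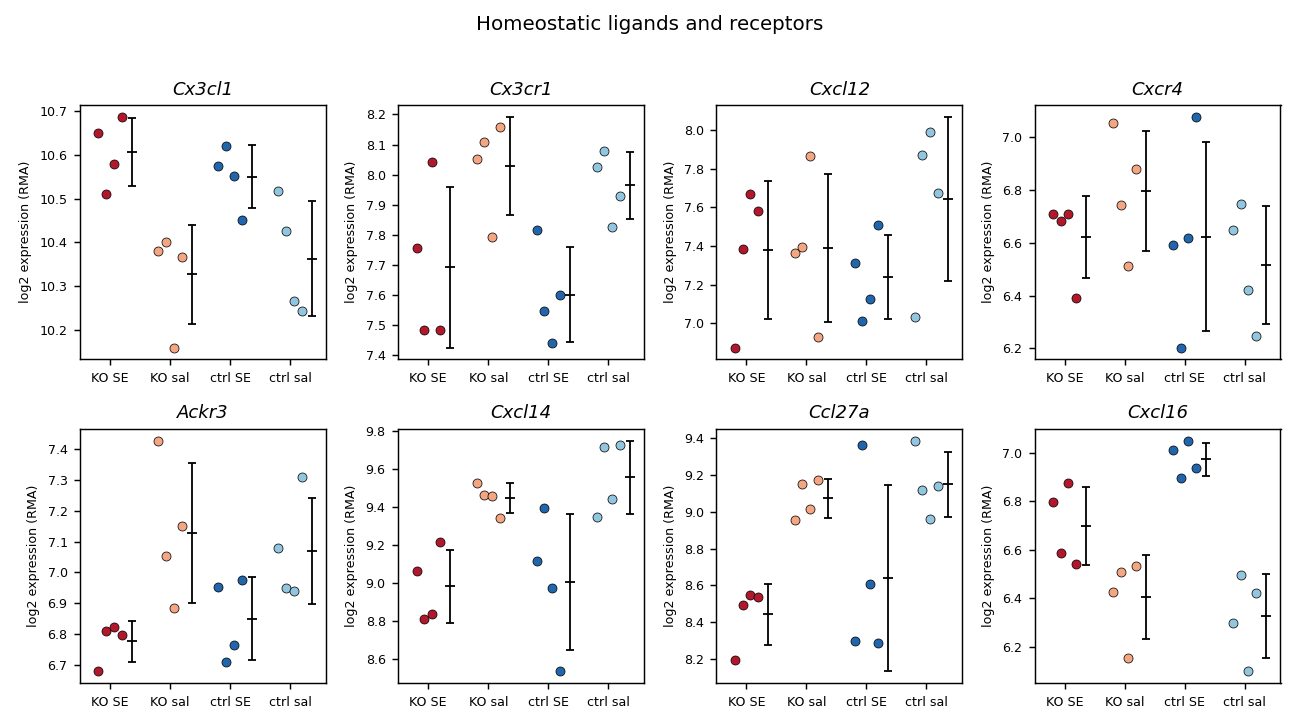
Log2 expression of homeostatic ligands and their receptors on each array in the 4 groups (KO, Astro-D2KO; ctrl, control; sal, saline); crosses and bars give the mean ± SD of 4 arrays. Cx3cl1 sits higher and Cx3cr1 lower after SE, by 0.23 and -0.35 averaged over genotypes, and Cxcl12 overlaps between SE and saline in both genotypes.

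Of the 17 signalling receptors, 1 rose and 0 fell in Astro-D2KO mice, and 1 rose and 1 fell in controls and on average, where 20.1%, 22.1% and 32.6% of all genes were called. Whether receptors were called less often than other genes was not tested. The receptors not called lay between -0.34 and 0.28 in Astro-D2KO mice and between -0.19 and 0.29 in controls. Ccr2, the monocyte receptor for Ccl2, Ccl7 and Ccl12, was 4.83, 4.53, 4.94 and 4.56 in Astro-D2KO SE mice, against 4.33, 4.69, 4.76 and 4.85 in Astro-D2KO saline mice, and 4.85, 4.55, 4.71 and 4.77 in control SE mice, against 4.54, 4.82, 4.59 and 4.85 in control saline mice. The arrays overlapped in both genotypes, with differences of 0.06 and 0.02. Cxcr2, the neutrophil receptor for Cxcl1, was 5.85, 5.83, 5.65 and 5.74 in Astro-D2KO SE mice, against 5.65, 5.92, 5.92 and 5.66 in Astro-D2KO saline mice, and 5.79, 5.66, 5.89 and 5.48 in control SE mice, against 5.88, 5.78, 5.80 and 5.78 in control saline mice. Cxcr3, the T-cell receptor for Cxcl10, was 6.38, 6.17, 6.46 and 6.26 in Astro-D2KO SE mice, against 6.21, 6.29, 5.94 and 6.27 in Astro-D2KO saline mice, and 6.48, 6.40, 6.42 and 6.35 in control SE mice, against 6.36, 6.08, 6.19 and 6.76 in control saline mice. The arrays of both overlapped; Cxcr2 differed by -0.02 in Astro-D2KO and -0.10 in control mice, and Cxcr3 by 0.14 and 0.06.

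Ccr1, the receptor for Ccl3 and Ccl9, was 4.25, 3.99, 4.41 and 4.30 in Astro-D2KO SE mice, against 4.24, 4.34, 4.21 and 4.23 in Astro-D2KO saline mice, and 4.38, 4.54, 4.27 and 4.73 in control SE mice, against 4.12, 4.18, 3.92 and 4.32 in control saline mice. It rose in controls (0.34 ± 0.11, limma adjusted p = 0.0308), with overlapping arrays, and differed by -0.02 in Astro-D2KO mice. The control call was lost without control saline array 1, 2 or 3 or control SE array 2 or 4 (0.26 to 0.36, limma adjusted p between 0.0507 and 0.109). Ccr8, a receptor of T cells, was 4.46, 4.35, 4.74 and 4.46 in Astro-D2KO SE mice, against 3.95, 4.37, 4.32 and 3.91 in Astro-D2KO saline mice, and 4.30, 4.05, 4.05 and 4.13 in control SE mice, against 4.32, 4.29, 4.26 and 4.40 in control saline mice. Ccr8 rose in Astro-D2KO mice (0.37 ± 0.111, limma adjusted p = 0.0247), although the arrays overlapped, and its control difference of -0.19 missed the test (limma adjusted p = 0.261). The call was lost without Astro-D2KO saline array 1 or 4 or Astro-D2KO SE array 3 (0.29 to 0.31, limma adjusted p between 0.0859 and 0.0943). Ccr9, the receptor for Ccl25, was 4.84, 4.99, 4.98 and 4.67 in Astro-D2KO SE mice, against 4.51, 4.76, 4.37 and 4.71 in Astro-D2KO saline mice, and 5.22, 4.72, 4.83 and 5.03 in control SE mice, against 4.66, 4.52, 4.61 and 4.85 in control saline mice. The arrays overlapped in both genotypes, and Ccr9 passed the test only as an average over genotypes (0.29 ± 0.0834, limma adjusted p = 0.0129). Ccr1, Ccr8 and Ccr9 were among the genes of lowest mean, so the alternative that left those genes out could not test their calls.

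Of the 4 atypical receptors, Ackr3 is described above. Ackr2 (D6), which scavenges inflammatory CC chemokines, was 6.26, 6.54, 6.30 and 6.54 in Astro-D2KO SE mice, against 6.57, 6.58, 6.41 and 6.58 in Astro-D2KO saline mice, and 6.22, 6.28, 6.20 and 6.25 in control SE mice, against 6.49, 6.54, 6.34 and 6.88 in control saline mice. It fell in controls (-0.33 ± 0.102, limma adjusted p = 0.0279), where the arrays were separate, and averaged over genotypes (-0.22, limma adjusted p = 0.0227), with -0.12 in Astro-D2KO mice (limma adjusted p = 0.465, arrays overlapping). The control call was lost without control saline array 2 or 4 or control SE array 1 or 3 (-0.33 to -0.22, limma adjusted p between 0.0528 and 0.0944), and the average call without Astro-D2KO SE array 1 (-0.20, limma adjusted p = 0.0506). Ackr1 and Ackr4 were not called in either genotype.

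Between genotypes 0 of the 55 genes were called by limma, after SE, under saline or on average, and 0% of all 22180 genes were called. At an unadjusted p under 0.05, 4 members (beside 6.12% of all genes) differed between Astro-D2KO and control mice after SE: Ccr8 (0.37), Cxcl16 (-0.27), Ccr1 (-0.24) and Xcl1 (0.22), with limma adjusted p from 0.637 to 0.806. Under saline this was 1 member, Cxcr1 (0.26), beside 3.99% of all genes. On average it was Ccl11 (0.26) and Cxcr1 (0.17), beside 5.37%. These genes were named because of their values. Without the arrays labelled Astro-D2KO SE 1 and control SE 4, again 0 members were called.

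The test of the difference in SE response between genotypes (Astro-D2KO change minus control change) also called 0 of 55 members and 0% of all genes, with 3 members and 4.65% of all genes at an unadjusted p under 0.05. These 3 were Ccr8 (0.56, 95% interval 0.23 to 0.89), Cxcl16 (-0.35, -0.66 to -0.04) and Ccr1 (-0.36, -0.69 to -0.04), each with a limma adjusted p of 0.998. For the ligands that rose most, the intervals leave room for differences of some size: Ccl3 0.20 (-1.02 to 1.42), Ccl4 0.30 (-0.12 to 0.73), Ccl9 -0.05 (-0.41 to 0.31), Ccl2 -0.17 (-0.63 to 0.29), Ccl11 0.11 (-0.39 to 0.62) and Ccl12 -0.33 (-1.62 to 0.96). A call in 1 genotype and not in the other, as for Cx3cl1, Cxcl16 or Ccl12, was therefore not shown to be a difference between them.

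**Figure D5:**
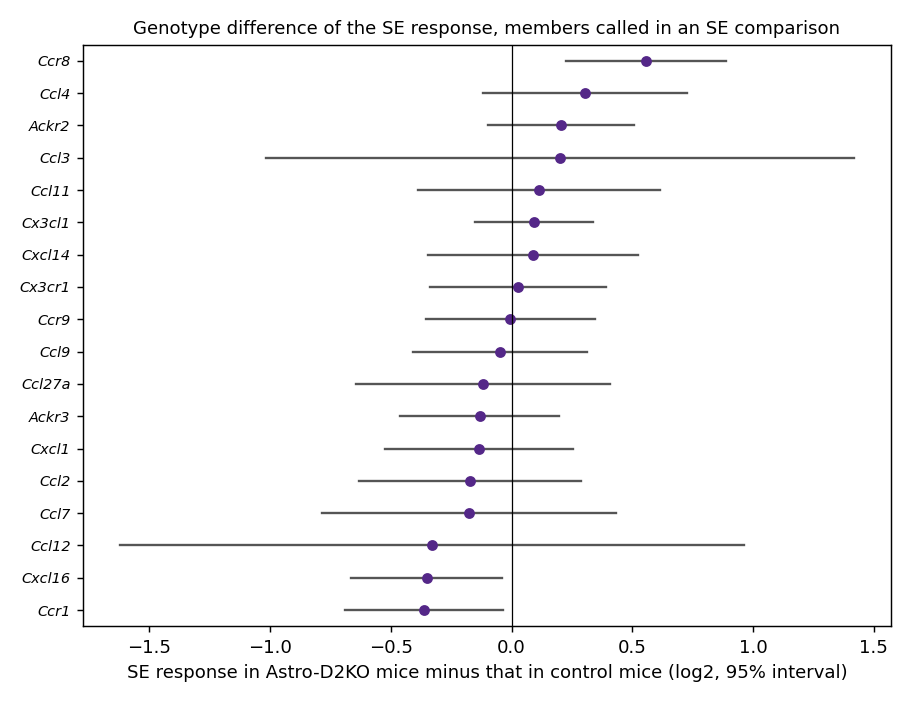
Difference in SE response, Astro-D2KO minus control, on the log2 scale with 95% intervals, for the 18 genes called in at least 1 SE comparison. Ccr8 at 0.56, Cxcl16 at -0.35 and Ccr1 at -0.36 are those with an interval off 0.

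A further list was chosen, like the others, with earlier results of these data known. It held cytokines, NF-kappa-B and AP-1 components, the NF-kappa-B inhibitor Nfkbia, interferon genes and adhesion genes, not all of which induce chemokines. Of its 23 measured genes 16 rose and 0 fell in each genotype, beside 7.49% of all genes rising in Astro-D2KO mice and 8.42% in controls, with medians of 0.68 in Astro-D2KO mice and 0.72 in controls, beside -0.01 and -0.02 over all genes. Changes in the list ran from -0.06 to 4.13 in Astro-D2KO mice and from -0.17 to 4.58 in controls, so the genes named next were not its largest. Il1b and Tnf, cytokines that induce chemokines through NF-kappa-B, rose by 0.78 and 0.84 in Astro-D2KO mice and by 0.83 and 0.66 in controls. Nfkbia, the inhibitor that NF-kappa-B itself induces, rose by 0.92 in Astro-D2KO mice and 0.88 in controls. Interferon gamma (Ifng) and the interferon-induced factor Irf1 were not called: Ifng differed by -0.00 and 0.06, and Irf1 by 0.02 and -0.17, in Astro-D2KO and control mice. The part of any gene of this list in the chemokine results was not tested. Of 26 measured genes of receptor signalling, 8 rose and 2 fell in Astro-D2KO mice, beside 7.49% and 12.6% of all genes, and 8 rose and 5 fell in controls, beside 8.42% and 13.7%. Rgs2 and Rgs4, which speed the shut-off of G proteins, rose by 1.91 and 1.43 in Astro-D2KO mice and by 1.94 and 1.52 in controls. Grk5, a kinase that desensitises receptors, rose by 0.86 and 0.87, whereas Ptk2b, a kinase downstream of them, fell by 0.40 and 0.51 on the log2 scale, in Astro-D2KO and control mice. Of 13 measured relatives outside the naming rule, 2 rose in Astro-D2KO mice and 1 in controls, beside 7.49% and 8.42% of all genes. In each genotype 0 fell, beside 12.6% and 13.7% of all genes. The 13 included Ccrl2, a receptor-like protein that binds chemerin, at 0.35 in Astro-D2KO and 0.30 in control mice. Rgs2, Rgs4 and Grk5 serve many receptors besides those of chemokines.

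Markers of the cells that chemokines recruit, and of the vessels they cross, were counted beside the 7.49% of all genes that rose in Astro-D2KO mice and the 8.42% in controls. The 8 monocyte and macrophage markers include Ccr2, which is also a chemokine gene reported above and was not called. Of the 8, 1 rose in each genotype, near those shares, with Cd68, a lysosomal protein that microglia also make, at 0.91 in Astro-D2KO and 0.90 in control mice. The mean log2 level of that list was 6.00 to 6.18 in Astro-D2KO SE mice and 5.75 to 5.93 in Astro-D2KO saline mice, and 5.90 to 6.23 in control SE mice and 5.80 to 5.88 in control saline mice. Of 9 neutrophil markers, Mpo rose in Astro-D2KO mice (0.31) and S100a9 in controls (0.34), and of 8 measured lymphocyte markers 0 changed in either genotype. Of 9 endothelial markers 3 rose in each genotype, and 0 fell in Astro-D2KO mice and 1 in controls, beside 12.6% and 13.7% of all genes. Their changes ran from -0.40 to 1.41 in Astro-D2KO mice and from -0.33 to 1.41 in controls. In each genotype 6 lay above 0, with medians of 0.25 and 0.20, and the junction protein Cdh5 was the highest. The part of these cells in the chemokine results was not tested.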

How the data were processed

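Hippocampal RNA of 16 mice was measured on Affymetrix arrays. The authors deposited 1 table of log2 expression values of 41345 probe sets, normalised with RMA per the submitters' processing notes; the log base was read from the value range (1.70 to 13.79), and a detection call was not used here. Probe sets with 1 gene symbol (23521) in the platform annotation were kept, and 1814 with several symbols and 16010 with none were left out; 23328 of those kept were found in the RefSeq gene table. The probe set with the highest mean stood for each of the 1082 genes with several, leaving 22180 genes. 33 probe sets listing a chemokine gene with others were not used.

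From these values, a linear model with a mean for each group was fitted to all 16 arrays with limma (version 3.58.1, R 4.3.3) and eBayes. Two-sided p-values were corrected after Benjamini and Hochberg across the 22180 genes, separately for each comparison, and called at 0.05. The fit was tested on simulated data. Titles number the mice 1 to 4 in each group, but same-numbered arrays did not deviate together (r over 0.1 in 4 of 24 pairs, from -0.29 to 0.34), so no pairing was used. The labels do not say how the mice were housed or run together, so batches could not be examined. No array repeated another's values.

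The genes and lists were chosen with earlier results of these data known. Values on every array are given for genes called with a log2 change of at least 1 and for ligand and receptor pairs chosen by name; those for other genes were added afterwards. The alternatives were centring, repeated quantile normalisation, leaving out the genes of lowest mean, other probe set rules, another prior, array weights, only the groups compared, the replicate number as a block, a minimum of 1.5-fold, and leaving out arrays.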

Additional observations from a re-analysis of the deposited data

Results flagged for a closer look

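Of 220 sets of 4 arrays (55 genes in 4 groups), 20 held 1 array far from the other 3 by Dixon's test at the 95% level; chance gives about 1 in 20. In Astro-D2KO SE mice these were Cxcl10 on array 3, high at 8.31 (next 6.56), Ccl27a on array 1, low at 8.20, and Cxcl2 at 4.87 and Cxcr4 at 6.39, both low on array 4. In Astro-D2KO saline mice array 4 was high for Ccl3 (7.71, next 6.00) and Ccl12 (6.35, next 4.70), array 1 was high for Cxcl1 (5.15), and array 3 was low for Ackr2 (6.41), Ccl25 (6.85) and Cx3cl1 (10.16) and high for Xcl1 (5.35). Without Astro-D2KO saline array 4 the Ccl3 rise in Astro-D2KO mice was 4.62. In control SE mice array 4 was high for Ccl2 (7.03, next 6.79) and low for Cxcl3 (2.98), and array 2 was high for Ccr4 (4.10) and low for Ccr6 (4.09). In control saline mice array 1 was high for Ccl17 (5.59), Ccl7 (5.98) and Ccr3 (3.66), array 2 was low for Ccl4 (5.82), and array 3 was low for Ccr10 (4.73). No difference in SE response between genotypes passed the limma test.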

How the results depend on the processing

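27 alternatives were run. The count of chemokine genes called after SE stayed within 1.5 times the reported count except where calls also had to reach 1.5-fold: then 6 were called in Astro-D2KO mice (5 higher, 1 lower), 8 in controls and 7 on average, all of these higher. The same minimum left 1209, 1260 and 1183 of all genes, beside 4459, 4907 and 7233 without it; it removes calls by construction. Leaving out each array in turn gave 7 to 11 in Astro-D2KO mice, 10 to 14 in controls and 15 to 17 on average. Of all 22180 genes, 3486 to 4707, 3998 to 4971 and 6646 to 7286 were then called. Between genotypes and for the difference in response it gave 0 to 0 chemokine genes. With the replicate number as a block the counts were 10, 13 and 17, beside 4109, 4576 and 6967 of all genes. They were 0 between genotypes and for the difference in response. Without the arrays labelled Astro-D2KO SE 1 and control SE 4 the counts were 9, 11 and 16, beside 4043, 4699 and 6911 of all genes. Of all genes, 5 then differed between Astro-D2KO and control mice after SE, 1 under saline, 2 on average and 1 in response. With all arrays these counts were 0, and 0 of the genes were chemokine genes.

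Of 40 called gene results, 28 were kept in all alternatives run on them. Leaving out the genes of lowest mean was not run on Ccr1, Ccr8 and Ccr9, which it removes. Of 1037 values 78 lost the call and 0 changed sign. The 12 results that lost the call were Ccr8, Cx3cl1, Ackr3, Ccl27a and Cxcl14 in Astro-D2KO mice, Ccl12, Ccr1, Cxcl1, Ackr2, Ccl27a and Cx3cr1 in controls, and Ackr2 on average. All but Ccl27a in Astro-D2KO mice were also lost under an alternative other than leaving out a single array. Cx3cr1 in controls was lost with repeated quantile normalisation, all probe sets fitted, array weights and the replicate block (limma adjusted p from 0.0582 to 0.0814). Ackr3 in Astro-D2KO mice was lost with the former 2 (limma adjusted p 0.0668 and 0.0596). Averaging the probe sets of Ccl27a gave -0.31 in controls, beside -0.51 (limma adjusted p = 0.151). The causes of the lost calls were not tested.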

Other observations

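Markers of other cell types were counted after SE. In Astro-D2KO mice, where 7.49% of all genes rose and 12.6% fell, of 8 astrocyte markers 1 rose and 0 fell, of 8 neuronal markers 1 rose and 3 fell, and of 5 pericyte markers 0 changed. In controls, where 8.42% of all genes rose and 13.7% fell, 1 astrocyte marker rose and 1 fell, 1 neuronal marker rose and 2 fell, and 0 pericyte markers rose and 2 fell. The array with the highest value among the 4 Astro-D2KO SE arrays was array 3 for 26 of the 55 chemokine genes and 11 of the 24 inflammatory ligands, whereas array 1 was the lowest for 12 of the 24. Astro-D2KO saline array 4, the highest of its group for Ccl3, Ccl12, Ccl2 and Cxcl10, was the highest for 4 of the 24 inflammatory ligands and the lowest for 4.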
